A study of Mus musculus with 2 samples.

Results

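The cells described here are the megakaryocyte progenitors of the fetal bone marrow, that is the 89 wild-type cells at E18.5 that the authors' list of haematopoietic stem and progenitor cells (HSPCs) puts in cluster 1. They are 16.3% (13.3 to 19.7%) of the 545 HSPCs listed at this stage, and 89 of the 12823 barcodes in both deposited libraries. The other 456 listed cells, with which they are compared, are 173 multipotent HSPCs, 144 myeloid progenitors and 139 cells listed as neutrophil progenitors. Intervals are 95% intervals that cover counting error only.

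Femoral bone marrow of C57BL/6 embryos was dissociated, cells carrying Ter119, Gr-1, B220 or CD3e were removed with magnetic beads, and the remaining cells were profiled by BD Rhapsody whole-transcriptome sequencing. There is 1 library of E18.5 WT embryos and 1 of E18.5 Bmx-CreER Wls embryos, in which Cre acts in arterial endothelial cells after tamoxifen is given to the dam, so the haematopoietic cells are not its target. The methods name neither the litter nor any tamoxifen for the wild type. With 1 library per genotype there was no replicate check, and a difference between libraries cannot be told apart from genotype. *Wls*, which encodes the protein that carries Wnt ligands to the cell surface, had 135 counts per 1000000 UMIs (CPM) in the WT library (130.3 to 140.0) and 112 in the Bmx-CreER Wls library (108 to 117). These sums over cells of all types, from tags that may lie outside the deleted part of the gene, check nothing about its loss in arteries. The libraries share 49 barcodes, and none of the 89 progenitors and no cell of the marker gate used at the end is among them.

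Megakaryocytes are the large polyploid cells of the marrow that release platelets. They arise from progenitors that also give red cells, and by a shorter route directly from stem cells, under the control of thrombopoietin. On the way they switch on GATA1 and its partner FOG1, then the receptors that let platelets stick and clump, and last the contents of the alpha granules and the tubulin coil of the platelet.

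The label was first checked against 5 markers: *Itga2b* and *Itgb3*, the chains of the fibrinogen receptor; *Pf4*, a chemokine of the alpha granule; *Treml1*, a receptor of the granule membrane; and *Meis1*, a transcription factor of stem cells and megakaryocytes. *Itga2b* stood at 108 CPM in the progenitors (80.3 to 141), against 39.5 in myeloid progenitors, 6.95 in multipotent HSPCs and 0 in the cells listed as neutrophil progenitors. *Treml1* stood at 51.7 (33.5 to 76.3) against 2.39, 0.868 and 0 in the same order, and *Meis1* at 192 (155 to 236) against 61.1, 57.3 and 5.58. These 3 markers were thus highest in the cells that carry the label. The other 2 were not. *Itgb3* reached 35.2 (20.5 to 56.3), above the multipotent HSPCs (3.47) but below the 363 of the cells listed as neutrophil progenitors, where the summed osteoclast list stood at 46124 CPM. *Pf4* reached 51.7 (33.5 to 76.3), below the 106 of the multipotent HSPCs. Of the 122 *Pf4* UMIs in multipotent HSPCs, 121 (99.2%) lay in 14 cells with 3 or more UMIs of the macrophage genes *C1qa*, *C1qb*, *C1qc* and *Mrc1*, and the other 159 cells held 0.917 CPM. The number 3 was chosen after the values were seen.

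**Figure D1:**
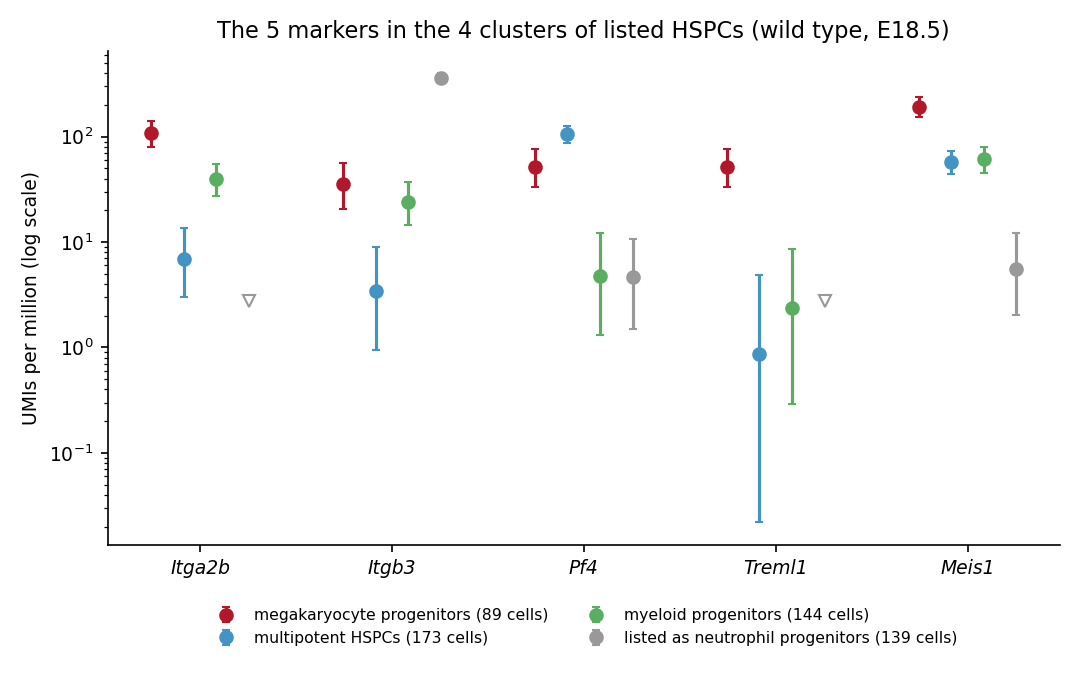
CPM (log scale) of the 5 markers in the 4 clusters of listed E18.5 wild-type HSPCs, with counting intervals; open triangles mark the floor of 3 counts where no UMI was found. *Itga2b*, *Treml1* and *Meis1* are highest in the megakaryocyte progenitors (108, 51.7 and 192), *Itgb3* in the cells listed as neutrophil progenitors (363) and *Pf4* in the multipotent HSPCs (106).

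Few of the 89 cells carried the markers together. No marker was detected in 23 of them, exactly 1 in 36, exactly 2 in 15, and 3 or more in 15, of which 4 cells had all 5. *Meis1* was found in 64.0% of the cells, *Itga2b* in 33.7%, *Itgb3* in 11.2% and *Pf4* in 10.1%, and *Treml1* in 16 cells. In the 953 listed chondrocytes, which should lack them, the same shares were 4.72%, 0.525%, 1.36% and 0%, with no *Treml1* UMI, at a median of 2765 UMIs per cell against 5608 in the progenitors. With every cell thinned to 1000 UMIs, which left out 2 progenitors and 20 chondrocytes, *Meis1* was found in 11.5% and 2.14%, *Itga2b* in 9.20% and 0.214%, *Treml1* in 5.75% and 0%, *Itgb3* in 2.30% and 0.643%, and *Pf4* in 2.30% and 0%. *Meis1*, *Itga2b* and *Treml1* thus stood clear of the background, the contrast for *Itgb3* was weak, and *Pf4* came from very few cells: the 3 richest held 60.0% of its 25 UMIs, against 15.1% of the 93 of *Meis1*. For the cluster as a sum, the label rests on *Itga2b*, *Treml1*, *Meis1* and the genes below rather than on *Pf4* and *Itgb3*. It was not borne out in each cell. A UMI of *Itga2b*, *Treml1*, *Pf4*, *Itgb3*, *Gp1ba*, *Gp1bb*, *Gp5* or *Gp9* was found in 49 of the 89 cells. *Meis1*, the marker found most often, is also a stem cell factor.

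GATA1 binds GATA motifs and FLI1 binds ETS motifs, and both kinds are found in many megakaryocyte promoters. RefSeq promoters (GRCm38.p6, from 250 bases before the RefSeq start of the gene to 50 bases after it) were at hand for 4 of the 5 markers, and are shown because the label was checked against these genes. Capitals mark the letters GATAA and AGGAAG on either strand (TTATC and CTTCCT on the other), motifs chosen after the promoters had been looked at. They lie at chr11:102469834-102470133 on the minus strand for *Itga2b*, chr5:90772185-90772484 on the plus strand for *Pf4*, chr17:48359666-48359965 on the plus strand for *Treml1* and chr11:19018920-19019219 on the minus strand for *Meis1*.
Itga2b: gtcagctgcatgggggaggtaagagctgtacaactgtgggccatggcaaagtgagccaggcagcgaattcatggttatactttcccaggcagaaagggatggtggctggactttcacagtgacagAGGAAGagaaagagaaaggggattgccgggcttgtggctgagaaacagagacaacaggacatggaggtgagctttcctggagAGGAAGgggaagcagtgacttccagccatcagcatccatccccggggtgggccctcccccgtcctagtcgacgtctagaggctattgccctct
Pf4: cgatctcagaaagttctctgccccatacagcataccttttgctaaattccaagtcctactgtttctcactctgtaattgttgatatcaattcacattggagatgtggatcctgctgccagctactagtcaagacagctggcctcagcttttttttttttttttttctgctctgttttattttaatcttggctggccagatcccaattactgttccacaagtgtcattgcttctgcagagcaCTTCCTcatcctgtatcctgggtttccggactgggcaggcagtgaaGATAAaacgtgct
Treml1: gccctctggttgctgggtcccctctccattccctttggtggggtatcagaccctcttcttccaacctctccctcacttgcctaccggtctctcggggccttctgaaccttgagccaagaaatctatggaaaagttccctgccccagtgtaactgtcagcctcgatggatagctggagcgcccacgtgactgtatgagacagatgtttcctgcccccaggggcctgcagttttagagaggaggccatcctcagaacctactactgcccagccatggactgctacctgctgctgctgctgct
Meis1: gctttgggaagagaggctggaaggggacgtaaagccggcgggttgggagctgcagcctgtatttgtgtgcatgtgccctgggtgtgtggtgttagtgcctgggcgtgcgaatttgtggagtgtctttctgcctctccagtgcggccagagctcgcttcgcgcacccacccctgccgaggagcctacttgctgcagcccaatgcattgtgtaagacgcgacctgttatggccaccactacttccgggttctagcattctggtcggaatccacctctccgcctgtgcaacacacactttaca
*Itga2b* has AGGAAG 2 times and no GATAA, *Pf4* has each motif 1 time with no overlap, and *Treml1* and *Meis1* have neither in this window. GATAA is found in 25.4% of the 32851 mouse promoters of the table and AGGAAG in 35.4%, so a match here is a description and not a binding site.

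Across all genes, 9913 had at least 20 UMIs over the 545 listed HSPCs. Of these, 797 (8.04%) were at least 2-fold higher in the megakaryocyte progenitors than in the other listed HSPCs, and 1197 (12.1%) at least 2-fold lower, with a median ratio of 1.09. The clusters were drawn from these same genes, so the counts give the background for the lists that follow and test nothing. They also depend on the comparison: without the cells listed as neutrophil progenitors, 463 genes were higher and 886 lower. TMM scaling multiplied every ratio to the other HSPCs by 0.841, a shift of -0.25 on the log2 scale, and gave 435 higher and 1612 lower genes. Taken from genes with at least 100 UMIs alone, the factor was 0.921 (-0.12). Ratios to the multipotent HSPCs moved less (0.951 and 0.997). Below, list sums are given in CPM, with the TMM value wherever a direction turns.

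Among the 4 platelet lists, the receptors had the largest ratio. Of 19 genes 11 could be tested; 8 were at least 2-fold higher than in the other HSPCs and 1 lower, with a median ratio of 5.24. Their summed level was 1084 CPM (993 to 1181) against 488, a ratio of 2.22 (2.01 to 2.46), and 3.10 times that of the multipotent HSPCs (2.72 to 3.54). No gene held more than 26.7% of the sum in the progenitors. The listed chondrocytes held 867 CPM of the same list (835 to 899). Without the marker genes they held 858, against 889 in the progenitors (807 to 978). The sum alone therefore does not set the progenitors apart from cartilage cells.

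The receptors of platelet adhesion were present at low counts. *Gp1ba*, *Gp1bb*, *Gp5* and *Gp9* encode the complex that catches von Willebrand factor on an injured vessel wall. Together they had 42 UMIs in 29 cells, 86.9 CPM (62.6 to 117), which was 9.86 times the other HSPCs (5.94 to 16.6). *Gp5* alone, 13 UMIs in 13 cells, was 27.5 times higher (7.54 to 150.2). *Gp1bb* is less certain, since its gene lies next to *Sept5* and 7.24% of chondrocytes held a UMI against 13.5% of the progenitors. *Esam*, a junctional adhesion molecule of platelets and stem cells, was 10.8 times higher (5.74 to 21.0) and *Pear1*, a receptor activated by platelet contact, 5.24 times (2.92 to 9.33).

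Some receptors for soluble platelet agonists were also raised. *P2ry1* and *P2rx1*, which answer to ADP and ATP, were 5.02 and 4.06 times higher than in the other HSPCs (2.60 to 9.55 and 2.36 to 6.88). *F2r*, the thrombin receptor PAR1, stood at 229.6 CPM, 3.11 times the other HSPCs (2.46 to 3.92) and 9.79 times the multipotent HSPCs (6.38 to 15.5), the largest ratio to that cluster among genes with at least 100 UMIs. *F2rl2*, the thrombin receptor PAR3, had 7 UMIs in the progenitors and none in the other HSPCs. With 3 counts, the limit used here for a group at 0, it was at least 14.8-fold higher, leaving out the counting error of the 7 UMIs. Of the 18 genes of the receptor list with counts, 2 had no UMI in the 89 cells. Among these 2 was *Clec1b*, the podoplanin receptor of mature platelets, for which 0 UMIs allow at most 6.21 CPM.

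Granule cargo, made later in the lineage, gave a different picture. Of 16 genes 13 were tested, 5 were higher and 4 lower, with a median ratio of 1.21. The sum was 1504 CPM against 1354, a ratio of 1.11 (1.03 to 1.20) that turned to 0.935 with TMM scaling, and 65.7% of it was *Srgn*, a proteoglycan of many blood cell granules. Without *Srgn* and *Sparc* the sum was 283 against 252, a ratio of 1.13 (0.932 to 1.35) that turned to 0.947 with TMM scaling. Against the multipotent HSPCs the whole list was at 1.09 times (0.997 to 1.19), and at 0.740 times without *Srgn* and *Sparc* (0.607 to 0.899), which came within counting error without *Pf4* as well (0.837 times, 0.668 to 1.04). *Mmrn1*, which stores factor V, was clearly higher at 84.8 CPM, 8.96 times the other HSPCs (5.43 to 14.9). *Rab27b*, needed for dense granules, was 3.33 times higher (1.86 to 5.78). *Vwf* had 4 UMIs against 1 in the other HSPCs (25.3 times, 2.51 to 1248), and *Ppbp*, a chemokine of mature megakaryocytes, 1 UMI. *F13a1* was nearly absent, with 1 UMI and 0.0284 times the level of the other HSPCs (0.000716 to 0.160), and *Thbs1* was lower at 0.413 times (0.185 to 0.807).

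Genes of the platelet cytoskeleton did not rise together. Of 13 genes 10 were tested, 2 were higher and 2 lower, with a median ratio of 0.994. Their sum was 0.831 times that of the other HSPCs (0.776 to 0.889) and 1.03 times that of the multipotent HSPCs (0.955 to 1.11), and the latter turned to 0.981 with TMM scaling. *Bin2*, a membrane-bending protein of platelets and leukocytes, was higher at 186 CPM (2.85 times, 2.20 to 3.67), and *Tuba8*, an alpha-tubulin, 7.24 times higher on 8 UMIs (2.29 to 23.5). *Actn1*, an actin cross-linker, was 0.102 times the other HSPCs (0.0631 to 0.157), and *Tpm4* 0.373 times (0.241 to 0.553). Both were highest in the cells listed as neutrophil progenitors (972 and 272 CPM). The platelet-specific tubulin *Tubb1* has no count in the WT library, and *Myl9* had none in the progenitors.

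Signalling molecules of platelets stood between the receptors and the cargo. Of 20 genes 16 were tested, 7 were higher and 1 lower (median 1.37), and their sum was 1.44 times that of the other HSPCs (1.35 to 1.54) and 1.42 times that of the multipotent HSPCs (1.31 to 1.53). *Prkar2b*, a subunit of protein kinase A, was 3.07 times higher (2.39 to 3.93), *Rgs18*, a brake on G-protein signals in platelets, 2.96 times (2.29 to 3.80), and *Ptgs1*, the cyclooxygenase that aspirin blocks, 2.61 times (1.87 to 3.61). *Plek*, the main substrate of protein kinase C in platelets, and *Fermt3*, which activates integrins, were 2.31 and 2.13 times higher (1.73 to 3.04 and 1.68 to 2.67). *Alox12*, the lipoxygenase of mature platelets, had no UMI. Over all 4 platelet lists the sum was 1.17 times that of the other HSPCs (1.13 to 1.22) and turned to 0.988 with TMM scaling. Of 50 tested genes 22 were higher and 8 lower (median 1.45), and *Srgn*, which the other clusters also express, was 14.8% of the sum.

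**Figure D2:**
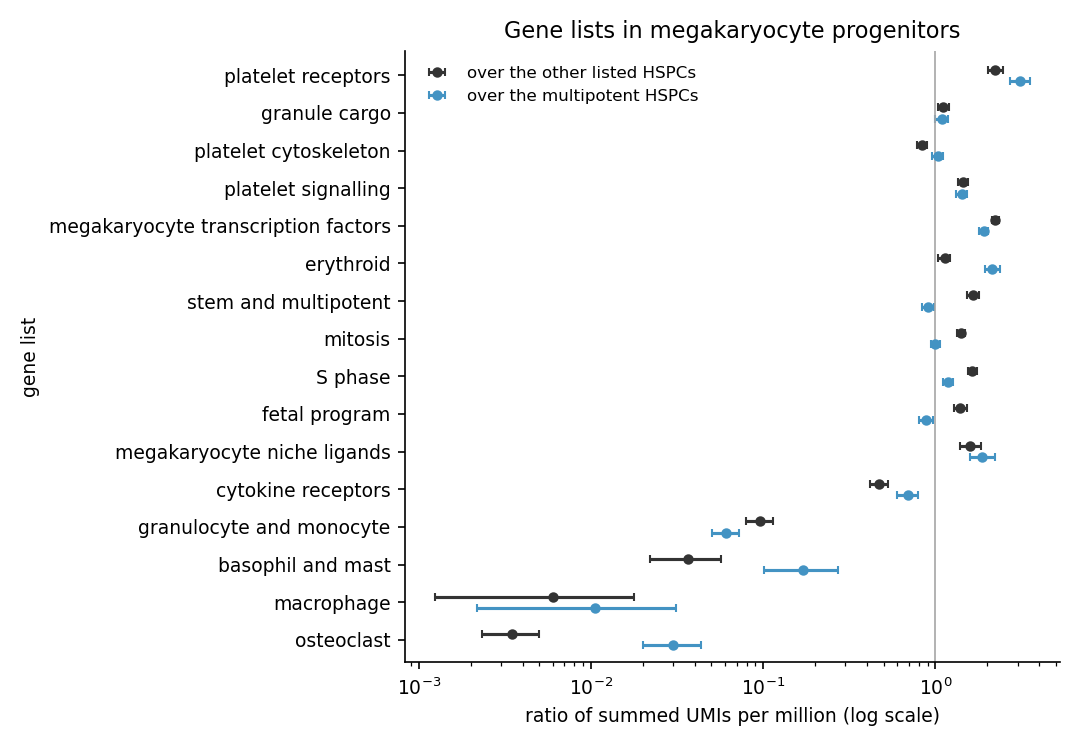
Ratio of the summed CPM (log scale) of 16 gene lists in the 89 megakaryocyte progenitors over the other listed HSPCs (black) and over the multipotent HSPCs (blue), with counting intervals. Platelet receptors (2.22 and 3.10) and transcription factors (2.23 and 1.91) lie above 1 in both, while granule cargo (1.11) and the erythroid list (1.13) over the other HSPCs fall below 1 with TMM scaling (0.935 and 0.952), as does the cytoskeleton over the multipotent HSPCs (1.03 and 0.981).

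Most transcription factors of the lineage were higher. All 20 genes were tested, 12 were at least 2-fold higher than in the other HSPCs and 0 lower, with a median ratio of 2.39. Their sum was 4383 CPM (4199 to 4574), 2.23 times the other HSPCs (2.12 to 2.34) and 1.91 times the multipotent HSPCs (1.80 to 2.02), and no gene held more than 11.9% of it. The same sum was closer in the myeloid progenitors (3479 CPM) and far lower in the cells listed as neutrophil progenitors (431). *Zfpm1*, which encodes FOG1, was among those with the largest ratios of all genes with at least 100 UMIs: 248 CPM, 7.68 times the other HSPCs (5.84 to 10.1) and 8.41 times the multipotent HSPCs (5.70 to 12.7). Its partner *Gata1* stood at 149, 4.43 times the other HSPCs (3.23 to 6.04) and 15.6 times the multipotent HSPCs (8.22 to 32.6).

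*Gata2*, which GATA1 replaces as the lineage matures, held the most UMIs of the list, 523 CPM. It was 6.77 times the multipotent level (5.30 to 8.72), although myeloid progenitors had more (999.7). *Mef2c*, a factor of megakaryocytes and lymphoid progenitors, was 3.57 times the other HSPCs (2.96 to 4.30), and *Tal1*, a core factor of both the megakaryocyte and the red cell, 3.80 times (2.88 to 4.99). *Gfi1b*, a repressor needed in both lineages, was 4.22 times higher (2.47 to 7.12). *Fli1*, which drives platelet genes, and *Nfe2*, which drives platelet release, were 2.42 and 2.66 times higher (1.87 to 3.10 and 2.01 to 3.48). The regulators of the lineage were thus higher as a set, where the granule cargo was mixed.

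Genes outside the lists add to this profile. Among genes with at least 100 UMIs, the 15 with the largest ratio to the other HSPCs include *Zfpm1*, *Meis1* and *Gata1*, described above. *Ctla2b* and *Ctla2a*, which encode inhibitors of cathepsin-like proteases and share near-identical sequence, so that the split between them is uncertain, were 7.85 and 6.35 times higher (5.23 to 11.8 and 5.50 to 7.34), with 790.2 CPM of *Ctla2a*. *Myct1*, a target of MYC found in stem cells and endothelium, was 6.74 times higher (4.70 to 9.66), and *Nrgn*, a calmodulin-binding protein known from neurons and also abundant in platelets, 5.05 times (4.30 to 5.92) at 583 CPM. *Muc13*, a membrane mucin, was 4.87 times higher (3.45 to 6.84), the linker histone gene *H1fx* 4.60 times, the antiproliferative gene *Btg2* 4.57 times, the semaphorin receptor *Plxnc1* 4.49 times and *Itih5* 4.41 times. For *Col4a1*, a basement membrane collagen (5.44 times, 3.73 to 7.93), 18 of 55 UMIs came from 1 cell. Outside the mitochondrial, ribosomal protein and haemoglobin genes, the highest levels belonged to the chaperone *Hsp90ab1* (6297 CPM), *Actb* (5682), *Cfl1* (4727), *Npm1* (4512), *Hnrnpa2b1* (3876), *Ncl* (3612) and *Tmsb4x* (3285), with the translation and RNA-binding genes *Serbp1* (2751), *Eef1b2* (2749) and *Pabpc1* (2412) next.

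The red cell programme, which shares its regulators with the megakaryocyte, was compared with the multipotent HSPCs. The erythroid list summed to 1537 CPM (1428 to 1652) against 718, a ratio of 2.14 (1.94 to 2.37), and to 5608 in the 64 cells that the authors list as erythroid. Against the other HSPCs, 5 of 9 tested genes were higher and 1 lower (median 2.42), while the sum, at 1.13 (1.04 to 1.22), turned to 0.952 with TMM scaling. Most of the sum, 60.3%, was *Car2*, a carbonic anhydrase also made by osteoclasts (1564 in the cells listed as neutrophil progenitors), and without it the ratio to the multipotent HSPCs was 1.52. Early erythroid genes were present at low levels: *Klf1*, the master factor of red cells, at 31.0 against 2.60 in multipotent HSPCs (11.9 times, 3.37 to 64.2) and 257 in listed erythroid cells, and *Epor*, the erythropoietin receptor, at 22.8 against 1.74 and 159. Later erythroid genes were missing, with 8 genes of the list at 0, among them *Ermap*, *Rhd* and *Kel*. A single globin stood out: *Hbb-bt* had 38 UMIs in 19 cells and none in chondrocytes, 5.60 times the other HSPCs (3.52 to 8.87). At 78.6 CPM it was also above the listed erythroid cells (5.07 CPM, 3 UMIs), so it does not follow the rest of the list, and it is uncertain how its reads were split from those of its near copy *Hbb-bs*. In the part of the authors' list of all cells that was at hand, 26 of the 89 progenitors appear and 1 of them is listed as erythroid; 63 are not in that part.

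**Figure D3:**
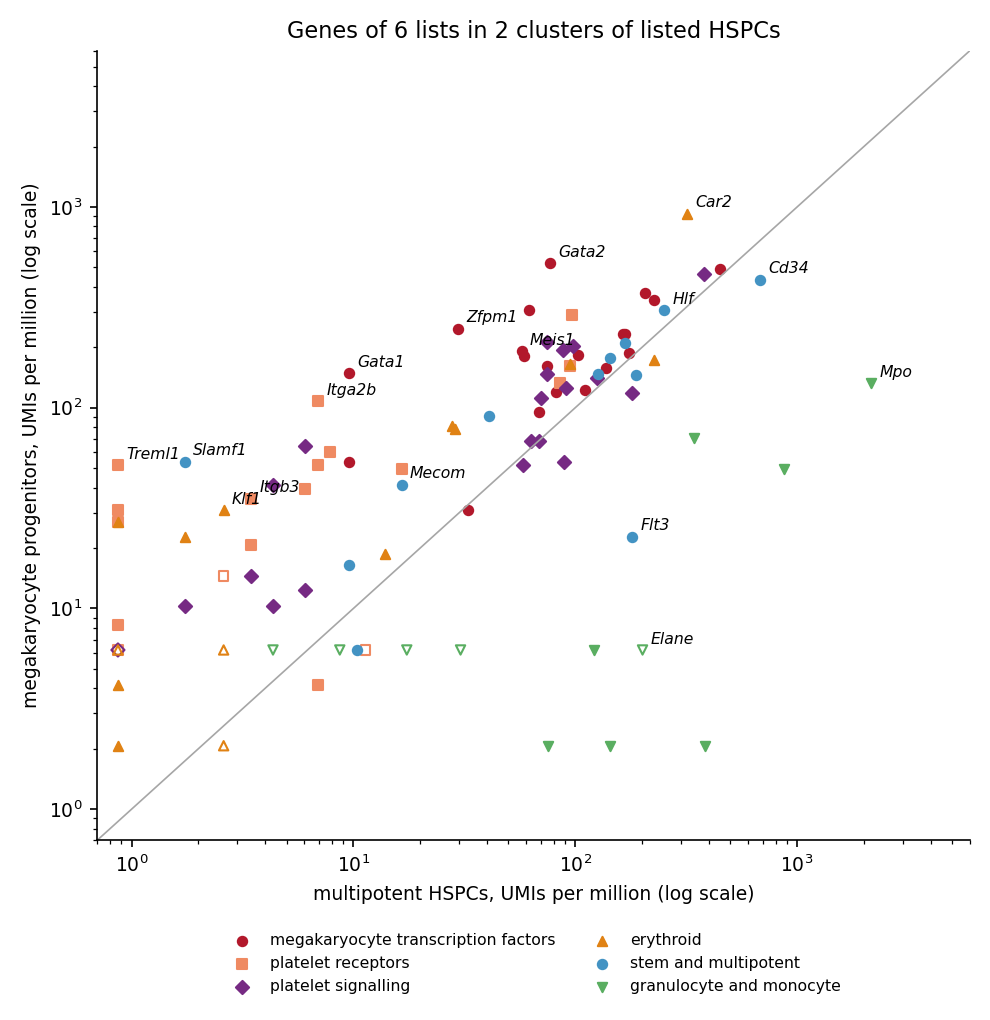
CPM (log scales) of the genes of 6 lists in megakaryocyte progenitors against multipotent HSPCs; open symbols have no UMI in 1 group and are drawn at its floor of 3 counts, and the line marks equal levels. *Gata1*, *Zfpm1*, *Gata2*, *Klf1* and *Slamf1* lie above the line (ratios of 15.6, 8.41, 6.77, 11.9 and 31.0), *Hlf* near it (1.22) and *Cd34*, *Flt3* and *Mpo* below it (0.638, 0.125 and 0.0615).

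Stem cell genes split in 2 directions, which the whole list hides. Against the other HSPCs 6 of 12 genes were higher and 1 lower (median 2.08) and the sum was 1.65 times higher (1.52 to 1.78), but it was 0.908 times that of the multipotent HSPCs (0.836 to 0.986). *Slamf1*, the CD150 antigen by which stem cells and megakaryocyte progenitors are sorted, was nearly confined to the progenitors among the listed HSPCs: 26 UMIs in 18 of 89 cells (20.2%) against 4 in the other 456, 41.2 times higher (14.3 to 162), with none in chondrocytes. *Mecom*, a factor of stem cell maintenance, was 5.07 times higher than in the other HSPCs (2.67 to 9.50) and 2.51 times the multipotent level (1.27 to 4.97). *Hlf*, another stem cell factor, stood at 306 CPM, 2.34 times the other HSPCs (1.92 to 2.83) and no lower than in the multipotent HSPCs (1.22 times, 0.994 to 1.49). By contrast *Flt3*, the receptor that marks lymphoid and myeloid potential, was at 22.8 against 181 in the multipotent HSPCs (0.125 times, 0.0616 to 0.229), and *Cd34* at 434 against 681 (0.638 times, 0.545 to 0.744).

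The progenitors were not alike, however. The 15 cells with 3 or more of the markers were compared with the other 74, with the limit that they were deeper (median 6702 against 5131 UMIs) and that the marker genes themselves are fixed by the choice. The cartilage and endothelial lists were also higher in them (1.80 times, 1.29 to 2.48, and 1.90 times, 1.17 to 3.02), but both turned without 1 cell (0.514 times, 0.279 to 0.883, and 0.795 times, 0.375 to 1.53), which held 59 of the 88 skeletal and 18 of the 29 endothelial UMIs and had a Scrublet score of 0.369. In these 15 cells the platelet signalling list was 1.80 times higher (1.57 to 2.05) and the transcription factors without *Meis1* 1.34 times (1.21 to 1.48). The granule cargo other than *Srgn*, *Sparc* and *Pf4* was 2.37 times higher (1.58 to 3.51), but 3 cells, with Scrublet scores of up to 0.369, held 29 of its 44 UMIs. Without these 3 cells, left out after the values were seen, the cargo was level (1.08 times, 0.575 to 1.92), while the signalling list was 1.41 times higher (1.19 to 1.65) and the transcription factors 1.44 times. With all 15 cells kept, here and below, *Gp5* was 4.27 times higher (1.23 to 15.4) and *Gfi1b* 4.27 times (1.83 to 10.1). *Rap1b* was 3.20 times higher (2.43 to 4.20) and *Fli1* 3.13 times (2.01 to 4.84). Stem cell genes were lower, with 0.459 times the summed level (0.364 to 0.573): *Hlf* was at 67.5 against 371 CPM (0.182 times, 0.0717 to 0.384), *Cd34* at 0.322 times (0.184 to 0.530) and *Cd93*, an antigen of early progenitors, at 0.222 times (0.0587 to 0.595). *Mecom* had 0 UMIs against 20, at most 0.549 times. *Gata1* (1.05 times, 0.560 to 1.85) and *Slamf1* (2.29 times, 0.928 to 5.36) did not differ beyond counting error.

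Another split, by *Hlf* itself, was made after these values were seen. *Hlf* was found in 51 of the 89 progenitors (57.3%, against 1.15% of chondrocytes; 25.3% and 0.322% after thinning), and the cells with it were slightly deeper (median 5992 against 5254 UMIs). The 38 cells without it had 7.03 times the *Pf4* (2.37 to 28.2), 4.46 times the *Gp5* (1.15 to 25.2), 3.68 times the *Klf1* (1.09 to 15.8), 2.76 times the *Itga2b* (1.50 to 5.24), 2.40 times the *Zfpm1* (1.63 to 3.57) and 2.10 times the *Gata1* (1.28 to 3.51). The 51 cells with *Hlf* had more *Cd34* (2.74 times, 1.96 to 3.90), *Cd93* (3.28 times, 1.77 to 6.52), *Hoxa9*, a homeobox gene of stem cells (2.37 times, 1.35 to 4.37), and *Hmga2*, a chromatin protein of fetal stem cells (2.17 times, 1.68 to 2.83). They also held most of the little *Mpo*, a granule enzyme of myeloid cells (7.22 times, 3.12 to 20.5), and of the *Hbb-bt* (8.72 times, 2.75 to 44.3). *Slamf1* (1.02 times) and *Meis1* (0.990 times) were level between both sets. *Hlf* was found without *Gata1* in 40 cells and *Gata1* without *Hlf* in 22, with both in 11 and neither in 16.

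**Figure D4:**
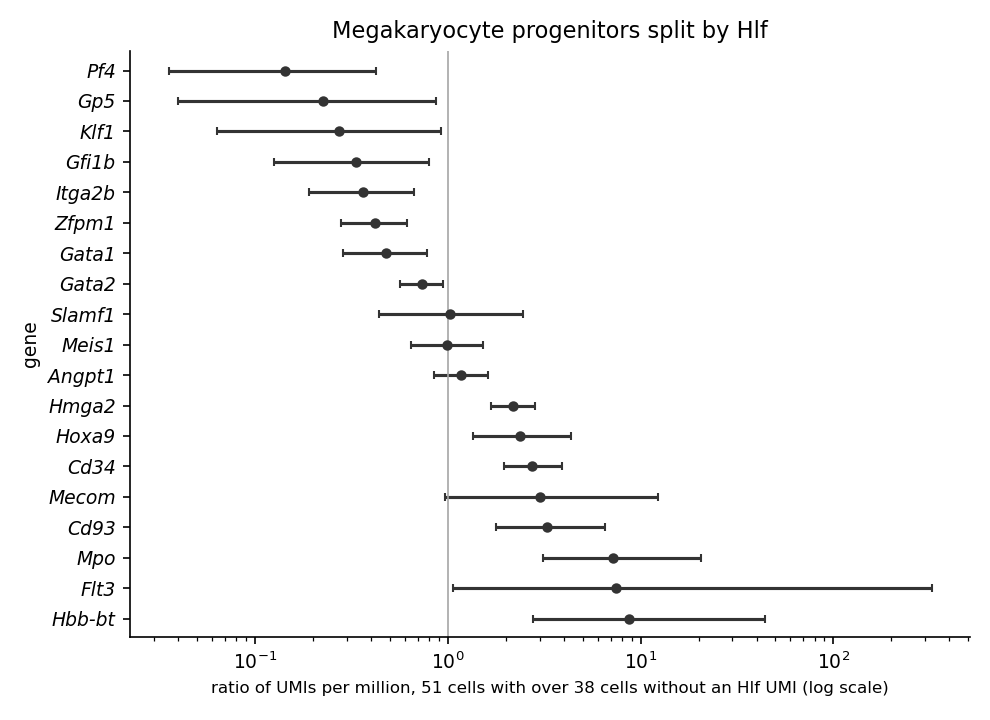
Ratio of CPM (log scale) between the 51 megakaryocyte progenitors with an *Hlf* UMI and the 38 without, with counting intervals, for 19 genes. *Pf4*, *Gp5*, *Klf1*, *Gfi1b*, *Itga2b*, *Zfpm1*, *Gata1* and *Gata2* lie below 1 (0.142 to 0.730), *Slamf1*, *Meis1* and *Angpt1* near 1 (0.990 to 1.17), and *Hmga2*, *Hoxa9*, *Cd34*, *Cd93*, *Mpo*, *Flt3* and *Hbb-bt* above it (2.17 to 8.72).

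Ordering the cells by granule cargo gave a weaker contrast. The 30 cells with the least cargo (up to 0.106% of their UMIs) had 1613 CPM of the stem and multipotent list, against 1440.4 in the 29 cells with the most (above 0.171%), a ratio of 1.12 (0.933 to 1.35), and 1.35 times the mitosis genes (1.20 to 1.53). These sets ran into the cells between them, with 13 and 15 cells within 10% of a limit. Most of the cargo was *Srgn*, and with the cells ordered by the platelet receptors instead the stem list was 1.50 times higher in the lowest 30 than in the highest 29 (1.26 to 1.80) and the mitosis genes 0.777 times (0.688 to 0.877), so the contrast depended on which platelet genes set the order.

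Granulocyte and monocyte, osteoclast, basophil and mast cell, and macrophage genes were far lower in the progenitors than in the other HSPCs. In the granulocyte and monocyte list 9 of 11 tested genes were lower and 0 higher (median 0.120), with a sum of 265 CPM against 2766 (0.0957 times, 0.0798 to 0.114); *Mpo*, at 132, was 50.0% of it and *Elane*, a neutrophil protease, was at 0. All 9 osteoclast genes (0.00345 times, 0.00231 to 0.00496; median 0.0208), all 8 tested basophil and mast cell genes (0.0364 times, 0.0219 to 0.0570; median 0.0951) and all 6 macrophage genes (0.00604 times, 0.00124 to 0.0177; median 0.196) were lower. Of these lists 6, 8 and 5 genes were at 0 in the progenitors, and the most UMIs belonged to *Nfatc1*, *Hdc* and *Cd68*. Among genes with at least 100 UMIs the smallest ratios went to the osteoclast and macrophage genes *Ctsk*, *Mmp9*, *Acp5*, *Csf1r*, *Atp6v0d2*, *Ckb*, *Ccl9* and *Cd68*, with *Ctsk* at 0 UMIs against 21005. Against the multipotent HSPCs the smallest, by the same minimum, went to *Prg2*, an eosinophil granule protein (0 UMIs against 1899, at most 0.00376 times), *Ctsg*, a neutrophil protease (0.00539 times, 0.000136 to 0.0302), *Ctsk*, *F13a1* and *Csf1r*. Lymphoid genes were low in both groups, 24.8 and 21.9 CPM, a ratio of 1.13 (0.559 to 2.12) that turned to 0.955 with TMM scaling, with 0 of 2 tested genes past 2-fold (median 1.20).

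Endothelial genes went the other way. Of 5 genes 3 were tested, 2 were higher and 0 lower (median 6.20), and the sum of 176 CPM was 5.98 times that of the other HSPCs (4.40 to 8.14). *Tie1*, a receptor of endothelium and early blood cells, made 54.1% of it and stood at 95.2 CPM in 33 cells (37.1%, against 0.630% of chondrocytes), 6.20 times higher (4.04 to 9.52). *Kdr*, the VEGF receptor, had 15 UMIs, of which 8 came from 1 cell. None of the 5 genes was at 0. In all, 2 cells held 31 of the 85 endothelial UMIs, with Scrublet scores of 0.369 and 0.600 against a median of 0.0164, and without them the ratio was 3.97 (2.78 to 5.63). It was 5.08 (3.45 to 7.44) without the highest Scrublet scores in both groups, and both values were computed after the others were seen.

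RNA of the skeleton was also present. The cartilage list summed to 364 CPM, 72.2% of it *Col2a1*, the main cartilage collagen, and the stromal list to 285, 42.8% of it *Col1a2*; none of these 10 genes was at 0. Both were below the other HSPCs (0.341 times, 5 of 5 tested genes lower, median 0.307; 0.438 times, 2 of 4 lower, median 0.430) but above the multipotent HSPCs (2.74 times, 2.19 to 3.43, and 1.52 times, 1.22 to 1.89). In all, 5 cells with 10 or more such UMIs held 181 of the 314. *Igf2* and *Itm2a*, which were among the genes with the largest ratio to the multipotent HSPCs (6.08 and 5.67 times), are found in 100% and 99.6% of chondrocytes, and single progenitors held 72 of 199 and 47 of 138 of their UMIs. *Sparc* was similar, with 75.0% of 112 UMIs in 3 cells. The part of skeletal RNA in these values was not tested, and the granule cargo is given above without *Sparc* as well.

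Cell division genes were as high as in the multipotent HSPCs. Mitosis genes summed to 3488 CPM (3323 to 3658), 0.998 times the multipotent level (0.942 to 1.06) and 1.41 times the other HSPCs (1.34 to 1.49), where 0 of 13 were past 2-fold in either direction (median 1.30). *Top2a*, the topoisomerase of dividing cells, led the list at 1016, followed by *Mki67* (457) and *Cdk1* (395). S phase genes were 1.18 times the multipotent level (1.10 to 1.26), and 1 of 11 was at least 2-fold above the other HSPCs, with 0 lower (median 1.64). In the 15 cells with 3 or more markers mitosis genes were 1.61 times higher than in the other 74 (1.44 to 1.78) while S phase genes were lower (0.809 times, 0.698 to 0.934). Among cyclins and inhibitors 3 of 6 genes were higher than in the other HSPCs and 0 lower (median 1.75): the D cyclins *Ccnd2* (2.50 times, 2.12 to 2.96) and *Ccnd3* (3.17 times, 1.39 to 6.82), and the inhibitor *Cdkn1a* (2.13 times, 1.59 to 2.84).

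Genes linked to the fetal programme were expressed, though there was no adult library to compare them with. Of 7 tested genes 2 were higher than in the other HSPCs and 0 lower (median 1.24), and the sum was 1.39 times theirs (1.28 to 1.52) and 0.884 times that of the multipotent HSPCs (0.805 to 0.969). *Hmga2* made 50.0% of it at 654 CPM, below the 905 of the multipotent HSPCs (0.723 times, 0.635 to 0.820). *Igf2bp2*, an RNA-binding protein, was 3.52 times the other HSPCs (2.73 to 4.52). *Bcl11a* was 2.38 times (1.87 to 3.02), but it represses fetal globin, so its level does not speak for a fetal state. *Lin28b*, which holds cells in the fetal state, stood at 35.2. Within the progenitors the sum fell with the markers, to 0.508 times in the 15 cells with 3 or more (0.395 to 0.645).

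As a source of signals the progenitors stood out through *Angpt1*. Angiopoietin-1, its product, binds the Tie2 receptor of endothelium and stem cells. *Angpt1* was at 339 CPM (289 to 395) and in 69.7% of the progenitors, against 3.46% of chondrocytes, which was 3.57 times the other HSPCs (2.93 to 4.34) and 2.71 times the multipotent HSPCs (2.16 to 3.42). *Tgfb1*, which holds stem cells at rest, was at 60.0 (2.59 times, 1.62 to 4.04), and *Vegfa* at 80.7 (1.99 times, 1.35 to 2.88), although 32.4% of chondrocytes hold it. In the list of such ligands 2 of 8 tested genes were higher and 4 lower (median 0.523), and *Angpt1* was 64.8% of the sum. *Pdgfb* was lower (0.249 times, 0.127 to 0.442), and *Thpo*, which encodes thrombopoietin, and *Kitl*, the ligand of Kit, were at 0.

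Receptors for cytokines and for niche signals were lower instead. Of 14 genes 7 were at least 2-fold below the other HSPCs and 0 above (median 0.542), and the sum was 0.470 times theirs (0.414 to 0.533) and 0.692 times that of the multipotent HSPCs (0.601 to 0.794). *Cxcr4*, the receptor of the homing signal CXCL12, was at 26.9 against 92.9 in the multipotent HSPCs (0.289 times, 0.149 to 0.516). *Csf2rb*, the shared chain of the receptors for IL-3 and GM-CSF, was 0.328 times the other HSPCs (0.234 to 0.449), though its reads may be shared with the near copy *Csf2rb2*. *Tgfbr1* was 0.156 times (0.0922 to 0.249) and *Tgfbr2* 0.308 times the other HSPCs (0.199 to 0.456); the latter was level with the multipotent HSPCs (0.983 times, 0.598 to 1.58).

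The study concerns Wnt signals. Of 10 tested genes of the Wnt pathway list 0 were past 2-fold in either direction (median 1.06). The sum was 1.13 times the other HSPCs (0.998 to 1.28), which turned to 0.952 with TMM scaling, and 0.995 times the multipotent HSPCs (0.867 to 1.14). *Ctnnb1*, which encodes beta-catenin, was at 126 CPM, 1.80 times the other HSPCs (1.33 to 2.40), and *Gsk3b*, a kinase that marks beta-catenin for destruction, at 192 (0.947 times, 0.753 to 1.18). *Lef1*, its partner on DNA, and *Axin2*, a target gene and inhibitor of the pathway, were at 0, which allows at most 6.21. *Wls*, which is not in the list, was at 93.1 CPM (67.9 to 125) against 40.5 in the other HSPCs (33.7 to 48.3), a ratio of 2.30, or 1.93 with TMM scaling, and 1.45 over the multipotent HSPCs (0.977 to 2.13).

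The authors did not list the cells of the Bmx-CreER Wls library, so cells of both libraries were chosen by a UMI of at least 3 of the 5 markers. This gate held 21 of 5736 WT cells (0.366%, 0.227 to 0.559%) and 23 of 6620 Bmx-CreER Wls cells (0.347%, 0.220 to 0.521%), shares that did not differ beyond counting error. This depended on the gate: with at least 2 markers the shares were 2.06% (1.71 to 2.46%) and 1.37% (1.11 to 1.69%), and after thinning to 1000 UMIs they were 0.0178% and 0.0774%, on 1 and 5 cells. The cells with at least 3 markers had close median depths, 6861 and 7071 UMIs. Of the 21 WT cells 15 (71.4%) are among the 89 progenitors, 3 are listed as myeloid progenitors and 3 are in no HSPC cluster. The gate thus takes mainly marker-rich progenitors and misses most of the cluster.

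Marker-rich cells of the Bmx-CreER Wls library held more platelet RNA. Without the gate genes, the platelet lists summed to 12121 CPM in the Bmx-CreER Wls cells and 8994 in the WT cells, a ratio of 1.35 (1.26 to 1.44). Of 38 tested genes 15 were at least 2-fold higher and 1 lower (median 1.80), where 185 of all 3413 tested genes (5.42%) were higher and 168 (4.92%) lower, with a median of 1.02. TMM scaling left the ratio at 1.35. The gated cells differed in the markers they carried: a *Meis1* UMI was found in 20 of the 21 WT and 14 of the 23 Bmx-CreER Wls cells, and 4 or more markers in 7 and 12. The ratio was 1.25 among gated cells with *Meis1* and 1.15 with at least 2 markers as the gate, and the part of the cells caught in it was not tested. Platelet receptors without gate genes were 1.85 times higher (1.52 to 2.26; 5 of 7 tested higher, 0 lower, median 2.31), the signalling list 1.75 times (1.55 to 1.97; 6 of 15 higher, 0 lower, median 1.86), the cytoskeleton 1.51 times (1.30 to 1.75; 0 of 8 past 2-fold, median 1.42) and the cargo without *Srgn*, *Sparc* and *Pf4* 2.84 times (2.14 to 3.80; 4 of 6 higher, 0 lower, median 2.65). The whole cargo list, with these 3 genes, was only 1.22 times higher (1.09 to 1.36). Of its 9 tested genes 5 were higher and 1 lower (median 2.05).

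Genes of mature megakaryocytes were among those that differed. *Pf4*, a gene of the gate, had 258 UMIs in 17 of 23 Bmx-CreER Wls cells and 33 UMIs in 9 of 21 WT cells, 8.02 times higher in CPM (5.57 to 11.9), and up to 35 in 1 cell. *Ppbp* had 23 UMIs in 4 cells against 1 (23.6 times, 3.83 to 972). *Clec1b*, *Alox12*, *Myl9* and *Gp1ba*, each with no UMI in the WT cells, had 9, 18, 13 and 10 UMIs, at least 3.08, 6.16, 4.45 and 3.42-fold higher. The von Willebrand factor receptor was 3.20 times higher (2.03 to 5.18), *Gng11*, a G-protein subunit, 13.3 times (3.34 to 116), and *F2r* 2.76 times (1.78 to 4.39). Few cells carried the latest of these genes: without the cells with a *Ppbp* UMI, 4 and 1, the ratio of 1.35 became 1.24.

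**Figure D5:**
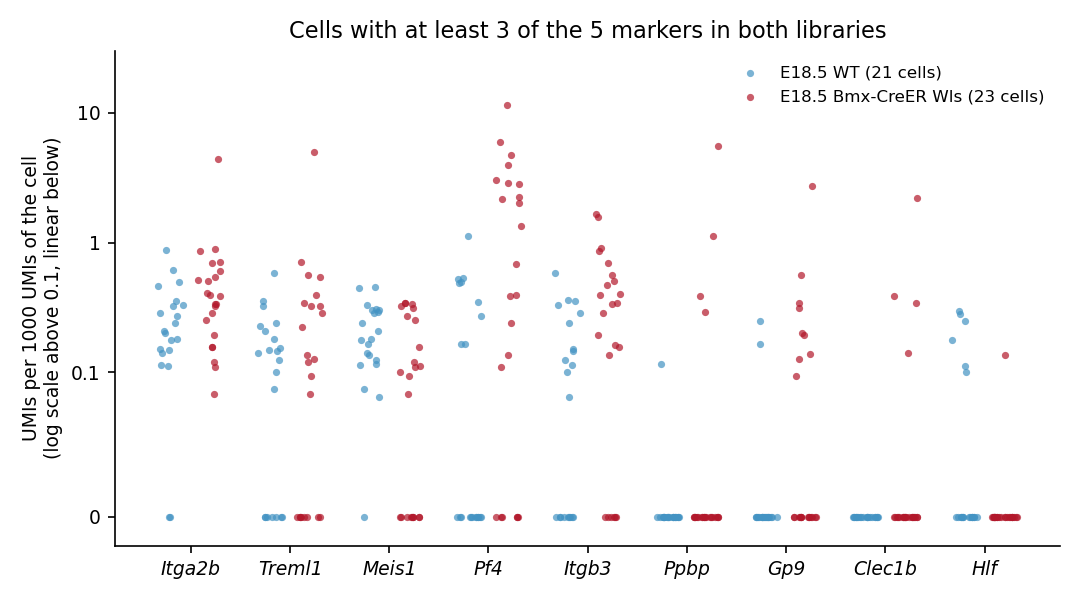
UMIs per 1000 UMIs of the cell (log scale above 0.1) of 9 genes in each of the 21 WT and 23 Bmx-CreER Wls cells with at least 3 of the 5 markers; each point is a cell and the spread along the x axis is random. *Pf4*, *Ppbp* and *Gp9* reach higher values in the Bmx-CreER Wls cells (8.02, 23.6 and 6.50 times in the sums) and *Hlf* lower (0.103 times), with no *Clec1b* UMI in the WT cells.

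Regulators did not follow. The transcription factors without *Meis1* summed to 0.962 times the WT level (0.865 to 1.07), with 0 of 17 tested genes higher and 1 lower (median 1.08); *Gata1* was at 1.31 times (0.754 to 2.31), *Zfpm1* at 1.08 times (0.737 to 1.59) and *Gata2* at 0.597 times (0.432 to 0.820). Stem cell genes were lower, at 0.572 times (0.428 to 0.759; 2 of 3 tested lower, 0 higher, median 0.499), with 1 *Hlf* UMI against 10 (0.103 times, 0.00236 to 0.721). The mitosis list summed to 0.965 times the WT level (0.865 to 1.08; 2 of 12 tested lower, 0 higher, median 0.899). Level within counting error were also S phase genes (1.07 times, 0.916 to 1.25; 0 of 10 past 2-fold, median 0.956) and the erythroid list (1.08 times, 0.885 to 1.31; 0 of 4 past 2-fold, median 1.12).

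The skeletal RNA in the gated cells moved with the library too. The stromal list was at 8335 CPM in WT and 1423 in Bmx-CreER Wls cells (0.171 times, 0.147 to 0.197; 2 of 3 tested lower), and the cartilage list at 7488 and 5609.5 (0.749 times, 0.686 to 0.818; 2 of 5 lower). Nearly all of it, 2485 of 2521 and 1082 of 1092 UMIs, lay in 5 WT and 7 Bmx-CreER Wls cells with 10 or more such UMIs, and without these cells the ratio of 1.35 became 1.67. The 5 smallest ratios among genes with at least 100 UMIs, *Col10a1* (0.00228 times, 0.0000575 to 0.0127), *Ibsp*, *Matn1*, *Col1a1* and *Col1a2*, are cartilage and bone genes, and 449 of the 451 *Col10a1* UMIs were in 1 WT cell. *Pf4*, *Peg3* (3.64 times, 2.24 to 6.13), *Dlk1* (3.07 times, 2.44 to 3.88), *F2r* and *Lims1* (2.43 times, 1.65 to 3.65) had the 5 largest; *Peg3*, an imprinted gene, was in 5 cells of each library, and *Dlk1*, an imprinted gene of fetal tissues, in 11 and 16. The part of skeletal RNA, of other blood cells, of doublets and of the number of mature cells caught in each library was not tested.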

How the data were processed

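The authors deposited 1 table per library with the unit count, that is UMIs for each gene in each barcode, made with UMI-tools 1.0.1, STAR 2.7.1a on mm10 and featureCounts 1.6.4, without normalization. The WT table holds 5998 barcodes and 22708005 UMIs, and the Bmx-CreER Wls library has 6825 barcodes and 24704991 UMIs. The gate used the filter of the methods (over 200 and under 5000 genes, less than 30% mitochondrial UMIs), which 5736 and 6620 cells passed. Doublets were kept, since the threshold of Scrublet called 43 (0.750%) and 4 cells (0.0604%); an alternative dropped the top 5% of scores. UMIs were summed per group and given as counts per 1000000 (CPM). The 89 progenitors held 483430 UMIs, so a gene at 0 could reach 6.21 CPM. Levels have Poisson intervals, shares Clopper-Pearson intervals and ratios conditional binomial intervals. A group at 0 was set at 3 counts, and the limits of such ratios leave out the counting error of the other group. The members and the 22 gene lists (273 genes, of which 4 had no count) were chosen with earlier results of these data known. Named genes are list genes and, with at least 100 UMIs over both groups, the 15 largest and 8 smallest ratios to the other HSPCs, the 10 highest levels, and the 5 largest and 5 smallest ratios to the multipotent HSPCs and between gated cells. Some of these genes are not reported here. No test across samples was possible. The fold counts were also run on simulated Poisson counts of summed groups. These lack the spread between cells seen here, so they do not test the counts given above. Tools were scipy 1.17.1 and numpy 2.4.6 (intervals), scanpy 1.11.5 (Scrublet) and pandas 2.3.3 under Python 3.11.15, matplotlib 3.10.9, and edgeR 4.0.16 in R 4.3.3 for TMM.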

Additional observations from a re-analysis of the deposited data

How the results depend on the processing

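Of 104 alternative values, 60 stayed within the counting interval of the main value (for gene counts, within 1.5 times), 40 moved and 4 turned. A turn was counted only where the main interval did not include equal levels. The mitosis ratio of 0.998 was not such a case, and its rise to 1.03 after thinning was not counted as a turn. The share of progenitors among listed HSPCs ran from 16.8 to 17.9%, against 16.3%. The 797 genes higher than in the other HSPCs became 435 with TMM scaling and 435 with the median of ratios, 463 without the cells listed as neutrophil progenitors, 1462 and 2572 with a minimum of 5 UMIs or none, 237 with at least 100, and 106 at a fold of 4; the 1197 lower genes became 614 with at least 100 UMIs and 466 at a fold of 4. Fewer genes pass a stricter minimum or fold by construction, and for the other values in this section the cause was not tested. The platelet ratio of 1.17 turned to 0.988 with TMM scaling and to 0.988 with the median of ratios. It was 1.08 as a mean over cells, 1.03 after thinning to 1000 UMIs, 1.30 against the multipotent HSPCs and 1.72 for gated WT cells. The erythroid ratio of 2.14 became 2.62 after thinning and 1.81 for gated WT cells, and the mitosis ratio of 0.998 became 1.07 as a mean over cells and 1.23 for gated WT cells. The gate held 2.06% of WT and 1.37% of Bmx-CreER Wls cells with at least 2 markers, 0.122% and 0.181% with at least 4, and 0.0178% and 0.0774% after thinning, in place of 0.366% and 0.347%. The platelet ratio between gated cells, 1.35, became 1.67 as a mean over cells, 1.53 without the highest Scrublet scores, 1.76 after thinning and 1.15 with at least 2 markers.

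These alternatives were chosen after seeing the data: the platelet ratio was 1.10 without cells with all 5 markers, 2.22 for receptors alone and 1.08 with TMM from genes with 100 or more UMIs; the erythroid ratio was 1.52 without *Car2*; the stem list ratio of 1.12 between cells low and high in cargo was 1.50 by receptors and 1.52 by cargo without *Srgn* and *Sparc*; the gated ratio was 1.67 without cells rich in skeletal RNA, 1.24 without *Ppbp* cells, 1.65 without *Sparc*, 1.25 in cells with *Meis1* and 1.35 with TMM scaling; the endothelial ratio of 5.98 was 3.97 without 2 cells and 5.08 without the highest Scrublet scores; and without 3 marker-rich progenitors the cargo ratio of 2.37 was 1.08. Without 1 of these cells, their cartilage ratio of 1.80 turned to 0.514 and their endothelial ratio of 1.90 to 0.795. An order by *Pf4* alone could not be made, since 80 of the 89 cells had none. No paired analysis was possible because there is 1 library per genotype. With 89 and 21 cells, genes of a few UMIs have wide intervals, and a gene at 0 in the gated WT cells could still reach 18.8 CPM.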
